A study of Mus musculus with 9 samples.

Results

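The genes described here encode 9 proteins of the actin network: Flna, Actn4, Myh9, Myl6, Tln1, Pdlim1, Iqgap1, Cd2ap and Capzb. They were selected by gene symbol, as actin-binding proteins that become linked by disulfide bonds in disulfidptosis. All 9 were present among the 16509 genes of the deposited mouse expression table, and all 9 passed the filter on low counts that left 11949 genes for testing.

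The 9 libraries hold mRNA of cultured MC38 cells, which derive from a mouse colon carcinoma. Of these, 3 came from Ctrl cells, 3 from cells exposed to copper chloride with cystine (Cu-Cys) and 3 from cells exposed to Cadict, a nanoparticle of copper and cystine that also carries glucose oxidase and the EGFR-binding peptide GE11. The labels give DMSO as the Ctrl treatment whereas the study's methods name PBS, and neither gives a dose or an exposure time for these libraries. The study's methods describe its cell experiments in general as independent repeats, but the labels do not say which culture each library came from, and the p-values below measure the spread between these libraries.

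Disulfidptosis occurs in cells that import much cystine through the transporter Slc7a11 and then lack the glucose-derived NADPH needed to reduce it. Disulfide bonds form between cytoskeletal proteins, and the actin network contracts and pulls away from the plasma membrane. The bonds are made on protein, whereas the libraries report mRNA, so the values below describe transcript levels of these proteins and not their oxidation. In such bulk samples, fewer cells and less RNA per cell cannot be told apart.

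Each library held 17905771 to 18293056 counts. An undetected gene could stand at up to 3 counts, or 0.164 to 0.168 CPM (counts relative to library size), as far as counting error goes. The TMM factors, with which edgeR scales libraries to a common typical gene, were 1.262 to 1.274 in Ctrl, 1.206 to 1.209 in Cu-Cys and 0.6395 to 0.6654 in Cadict. Changes with Cadict depended on the scaling. Those of the 9 genes against Ctrl are given below as TMM-scaled CPM, relative to library totals and as TPM (abundance relative to all transcripts, scaled by transcript length). Changes of other genes are under TMM unless another scaling is named. Cadict replicate 2 stood apart from the other Cadict libraries, with a chi-square per gene of 14.7 and 23.1 against them, compared with 3.63 between those 2 and at most 4.53 within the other groups. Its counts also came from shorter transcripts (count-weighted mean effective length 2522 bases, against 2697 and 2753 in the other Cadict libraries and 3303 to 3306 in Ctrl). Of 6 epithelial markers in the table, which a colon carcinoma would carry, Epcam, Krt8, Krt18 and Vil1 stayed under 1 TPM in every library, and the 6 summed to 4.22 to 6.24 TPM in Ctrl and 11.5 to 13.2 in Cadict. The 5 fibroblast markers, led by the collagen gene Col1a2, summed to 292 to 317 TPM in Ctrl, 155 to 161 in Cu-Cys and 28.1 to 35.0 in Cadict. The 4 immune markers, nearly all Cd68, summed to 7.7 to 8.74 TPM in Ctrl and 15.2 to 18.7 in Cadict, with Ptprc at 0.07 TPM or less, and the 3 endothelial markers were all under 1 TPM. The 3 smooth muscle markers, nearly all Acta2, summed to 63.8 to 65.9 TPM in Ctrl, 47.8 to 50 in Cu-Cys and 25.9 to 28.2 in Cadict, with Myh11 at 0.02 TPM or less. The part of these markers in the values below was not tested.

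Sequences upstream of the start sites show what the promoters of these genes hold. RefSeq promoters on GRCm38.p6 (250 bases before to 50 after each start) were found for all 9 genes, with 10 start sites because Myl6 has 2. The 150 bases before the start are printed for Myh9 (chr15:77842176-77842325, minus strand) and Pdlim1 (chr19:40271617-40271766, minus strand), a pair of genes called higher with Cadict under TMM, although Myh9 was lower as TPM, and whose windows overlap no annotated exon. For the second Myl6 start, 30 bases around its CArG box, the sequence bound by serum response factor, are printed (chr10:128493040-128493069, minus strand). Capitals mark the GC box GGGCGG, the motif TATAAA and the CArG box, on either strand.
Myh9: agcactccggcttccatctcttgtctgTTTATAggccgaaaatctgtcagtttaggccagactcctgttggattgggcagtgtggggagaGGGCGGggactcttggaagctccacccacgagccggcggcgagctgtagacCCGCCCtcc
Pdlim1: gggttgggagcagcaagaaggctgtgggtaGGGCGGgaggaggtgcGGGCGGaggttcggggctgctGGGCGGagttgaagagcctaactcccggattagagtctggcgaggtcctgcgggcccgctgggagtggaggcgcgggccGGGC
Myl6: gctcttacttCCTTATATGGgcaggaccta
The last capitals of the Pdlim1 run are a GC box cut by the start site. A GC box was found in 8 of the 10 promoters, against 35.7% of all 32851 mouse promoters of the same length, and the promoters without it were those of Tln1 and the first Myl6 start. TATAAA was found in 1 of the 10, Myh9, against 13.6% of all. A CArG box was found in 1 of the 10, at position -50 of the second Myl6 start, against 1.63% of all. The 3 motifs did not overlap in the printed runs, and a match is only a run of letters.

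All 9 genes were well expressed. Per length, Myl6 led in every group, at 1525.3 ± 54.6 TPM in Ctrl, 1553.0 ± 33.6 in Cu-Cys and 2714.8 ± 279 in Cadict (SD, n = 3). Cd2ap was the lowest in every group, at 87.9 ± 3.09, 71.8 ± 1.64 and 25.5 ± 4.18 TPM (SD, n = 3). In Ctrl the order of TPM levels was Myl6, Flna, Capzb, Actn4, Myh9, Pdlim1, Iqgap1, Tln1 and Cd2ap, with no overlap of libraries between neighbours. Cu-Cys kept this order, and there the libraries of Myh9 and Pdlim1 overlapped. In Cadict, Capzb stood above Flna and Pdlim1 above Myh9, and the libraries of Flna and Actn4, Actn4 and Pdlim1, Pdlim1 and Myh9, and Iqgap1 and Tln1 overlapped. Together the 9 genes took 0.659% ± 0.0147 of all counts in Ctrl, 0.596% ± 0.0117 in Cu-Cys and 0.665% ± 0.0307 in Cadict (SD, n = 3). The Cu-Cys libraries, at 0.582% to 0.603%, lay below those of both other groups, whereas Ctrl (0.646% to 0.675%) and Cadict (0.631% to 0.690%) overlapped. Summed as TPM, which weights short transcripts more, the 9 genes stood at 3511 to 3617 in Ctrl, 3333 to 3354 in Cu-Cys and 4458 to 4586 in Cadict, with the 3 groups separate and Myl6 the largest part of each sum.

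**Figure D1:**
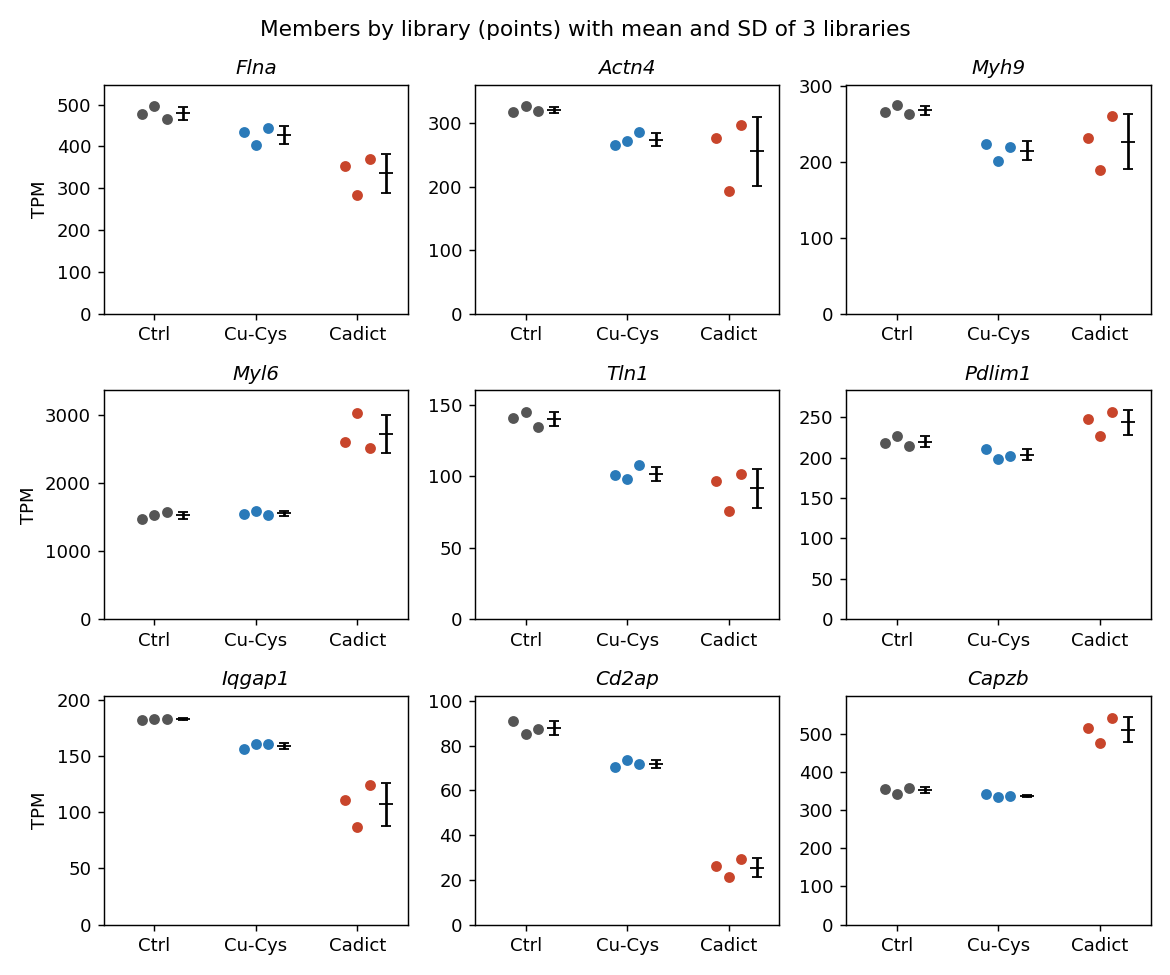
TPM of each of the 9 genes (vertical axes, from 0) in the 3 Ctrl, 3 Cu-Cys and 3 Cadict libraries (points), with the mean and SD of 3 libraries beside them. Capzb and Myl6 were higher in every Cadict library than in any Ctrl library, Pdlim1 overlapped, and the other 6 were lower on this scale. Most genes fell as TPM: by limma, 79.9% of all those tested fell and 11.9% rose past the 0.05 threshold. How many of all genes separate without overlap was not computed. In contrast, TMM scaling places all of the 9 but Cd2ap higher.

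The comparison of Cadict with Ctrl asks how the full nanoparticle changed these transcripts. With TMM scaling, 8 of the 9 genes rose and Cd2ap fell, whereas as TPM 3 were higher and 6 lower, each at an adjusted p of at most 0.05 (edgeR's quasi-likelihood test, or limma for TPM, with Benjamini-Hochberg adjustment over the 11949 genes). At that threshold 40.6% of all genes were higher and 47.1% lower under TMM, and 11.9% were higher and 79.9% lower as TPM. The study's threshold asks for a 2-fold change or more with an adjusted p no higher than 0.001. By it, 4 of the 9 were called higher (Myl6, Capzb, Pdlim1 and Myh9) and 0 lower, against 20.7% and 27.1% of all genes. The median log2 fold change of the 9 was 0.96, against -0.13 for all genes tested. Of all genes, 2472 were called higher and 3235 lower under TMM, against 828 and 6148 by library totals and 389 and 6475 as TPM. Scaling by library totals moved the median of all genes to -1.08 and that of the 9 to 0.01, and TPM moved them to -1.13 and -0.35. Relative to the median of all genes, 8 of the 9 lay above it under each of these scalings and Cd2ap below it.

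**Figure D2:**
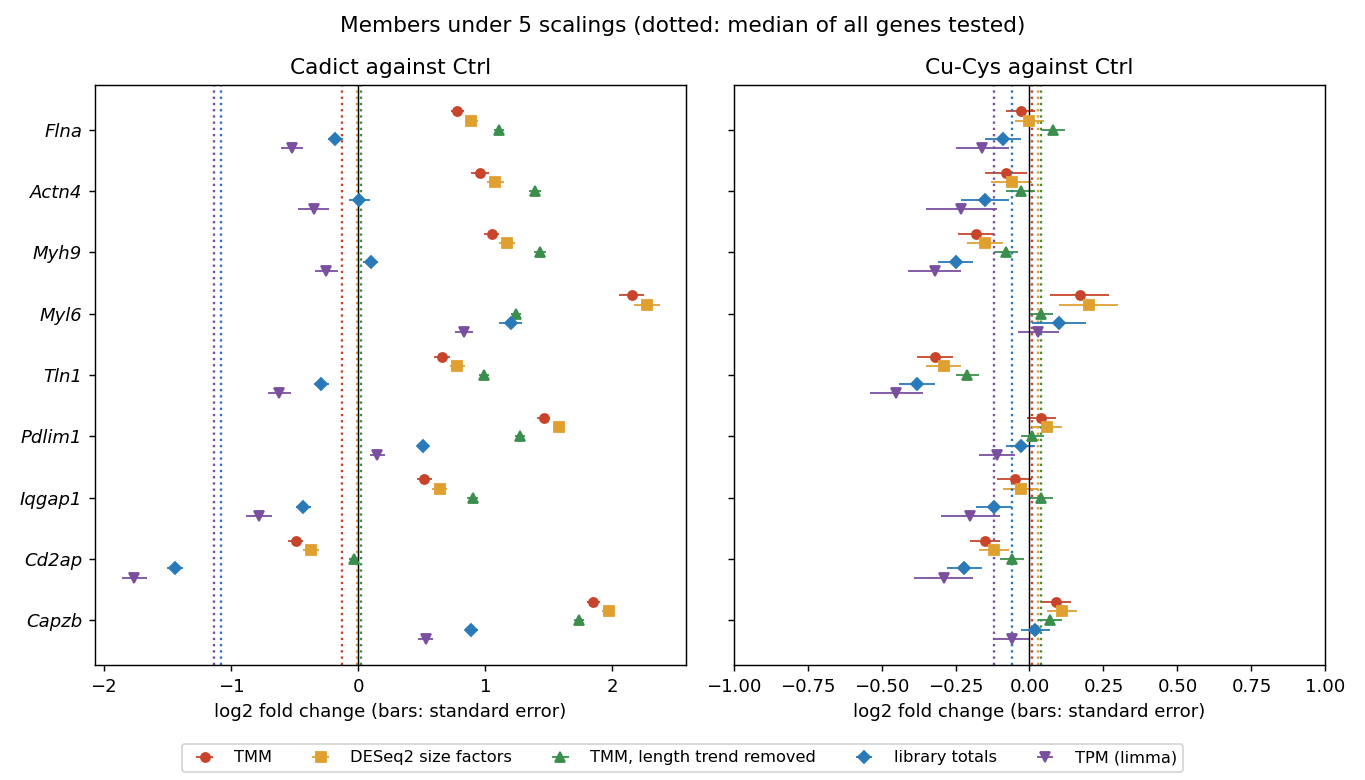
Log2 fold changes of the 9 genes (horizontal axes) with standard errors under 5 scalings, for Cadict against Ctrl and for Cu-Cys against Ctrl, with the median of all genes tested under each scaling as a dotted line. From TMM to library totals and on to TPM every Cadict value moves down, as does that median, so Flna, Tln1 and Iqgap1 lie above 0 under TMM and below it by library totals and TPM, while Capzb, Pdlim1 and Myl6 stay above 0 under all 5.

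Flna (filamin A, Entrez 192176) cross-links actin filaments into an orthogonal mesh and ties it to membrane receptors. Its TMM-scaled CPM was 1773, 1896 and 1794 in the Ctrl libraries, 1829, 1710 and 1829 in Cu-Cys and 3218, 2935 and 3201 in Cadict. The Cadict libraries were all above the rest, and Ctrl and Cu-Cys overlapped. As TPM the order turned, from 465 to 496 in Ctrl and 404 to 445 in Cu-Cys down to 283 to 371 in Cadict. Under TMM Flna rose with Cadict by 0.78 ± 0.05 on the log2 scale (SE, edgeR adjusted p = 1.1e-09), whereas its change was -0.18 by library totals and -0.52 as TPM.

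Actn4 (alpha-actinin 4, Entrez 60595) bundles filaments in stress fibres and at cell edges. The 3 Ctrl libraries gave 516, 546 and 538 CPM with TMM, those of Cu-Cys 490, 503 and 516, and those of Cadict 1105, 888 and 1123. Every Cadict value was above every other, and the 2 lower groups did not overlap, although the highest Cu-Cys and the lowest Ctrl value differed by less than 1 CPM. Actn4 rose with Cadict by 0.96 ± 0.07 under TMM (SE, edgeR adjusted p = 3.9e-09), with 0.01 by library totals and -0.35 as TPM. Cadict replicate 2 was the low one, and without it the rise was 1.06 and passed the 2-fold threshold.

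Myh9 (Entrez 17886) is the heavy chain of non-muscle myosin IIA, the motor that pulls on actin filaments. It gave 868, 922 and 891 CPM in Ctrl, 830, 745 and 793 in Cu-Cys, and 1852, 1734 and 1974 in Cadict with TMM scaling. All Cadict libraries exceeded all Ctrl libraries, which in turn exceeded all Cu-Cys libraries. The rise with Cadict was 1.05 ± 0.06 (SE, edgeR adjusted p = 7.4e-11), and became 0.10 by library totals and -0.25 as TPM. It was just past 2-fold, and fell short of it at 0.99 when at least 10 counts were required in every library and at 0.97 with no filter.

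Myl6 (Entrez 17904) encodes the essential light chain that sits on the lever arm of this myosin. Its CPM with TMM was 246, 265 and 267 in Ctrl, 283, 300 and 291 in Cu-Cys and 1060, 1417 and 984 in Cadict. The groups were separate in this order, and Cadict replicate 2 was the highest library. The TPM values were 1466, 1536 and 1574 in Ctrl, 1543, 1590 and 1525 in Cu-Cys and 2599, 3032 and 2513 in Cadict. Among the 9 genes Myl6 had the largest rise with Cadict under TMM, 2.15 ± 0.10 (SE, edgeR adjusted p = 1.2e-11), a 4.45-fold change. It was also higher by library totals (1.20), as TPM (0.83) and without Cadict replicate 2 (1.98).

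Tln1 (talin 1, Entrez 21894) links integrins to actin and bears the pulling force at adhesions. With TMM the Ctrl libraries gave 530, 558 and 525 CPM, the Cu-Cys libraries 429, 420 and 448 and the Cadict libraries 883, 782 and 888. The 3 groups were separate, with Cu-Cys lowest and Cadict highest. Its TPM, in contrast, was 135 to 145 in Ctrl, 98.2 to 108 in Cu-Cys and 76.0 to 102 in Cadict. Tln1 rose with Cadict by 0.66 ± 0.06 under TMM (SE, edgeR adjusted p = 1.7e-08), whereas it changed by -0.29 by library totals and by -0.62 as TPM.

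Pdlim1 (Entrez 54132) is a PDZ and LIM domain adapter that binds alpha-actinin on stress fibres. It stood at 117, 126 and 119 CPM in Ctrl and 129, 122 and 122 in Cu-Cys, which overlapped, and at 329, 346 and 325 in Cadict with TMM scaling. As TPM the Ctrl (215 to 227) and Cadict (227 to 257) libraries overlapped. The rise under TMM was 1.46 ± 0.05 (SE, edgeR adjusted p = 2.9e-13), or 2.76-fold, and the value was 0.51 by library totals and 0.15 as TPM.

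Iqgap1 (Entrez 29875) is a large scaffold that binds active Cdc42 and Rac1 together with actin. In CPM with TMM it gave 587, 606 and 613 in Ctrl, 573, 592 and 575 in Cu-Cys and 880, 787 and 928 in Cadict. Only the Cadict libraries stood apart from the rest. Its rise under TMM, 0.52 ± 0.06 (SE, edgeR adjusted p = 3.6e-07), was the smallest of the 8, and the change was -0.43 by library totals and -0.78 as TPM.

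Cd2ap (Entrez 12488) is an adapter that binds capping protein and links membrane receptors to actin. It was the one gene of the 9 that fell under TMM. The Ctrl libraries gave 212, 203 and 211 CPM, those of Cu-Cys 186, 195 and 185 and those of Cadict 149, 138 and 159, so that the groups were separate and descending. The fall with Cadict was -0.49 ± 0.06 (SE, edgeR adjusted p = 4.9e-07), against -0.13 for the median gene. It was -1.44 by library totals and -1.76 as TPM, where the level went from 85.0 to 91.1 in Ctrl to 21.1 to 29.4 in Cadict. With the length trend of each library removed the change was -0.03 ± 0.04 (SE, edgeR adjusted p = 0.485).

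Capzb (Entrez 12345) is the beta subunit of capping protein, which closes the fast-growing end of actin filaments. It stood at 220, 219 and 230 CPM in Ctrl, 240, 237 and 233 in Cu-Cys and 788, 831 and 783 in Cadict with TMM. The Cadict libraries were far above the others, and those of Cu-Cys lay narrowly above those of Ctrl. The TPM values were 354, 343 and 359 in Ctrl and 516, 475 and 541 in Cadict. Capzb rose with Cadict by 1.85 ± 0.05 under TMM (SE, edgeR adjusted p = 1.2e-14), a 3.6-fold change, and was also higher by library totals (0.89) and as TPM (0.53).

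Within the Cadict group, replicate 2 had the lowest TPM for 8 of the 9 genes and the highest for Myl6. In TMM-scaled CPM it was the highest for Myl6, Pdlim1 and Capzb, whose transcripts are the 3 shortest of the 9, and the lowest for the other 6. Without this library the 9 changes against Ctrl kept their directions, at 0.82 for Flna, 1.10 for Myh9, 0.72 for Tln1, 0.58 for Iqgap1, 1.82 for Capzb, -0.44 for Cd2ap and 1.43 for Pdlim1, beside the values for Actn4 and Myl6 above.

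Cu-Cys against Ctrl asks what copper and cystine did without the enzyme and the peptide. Tln1 fell by 0.32 on the log2 scale (SE 0.06, edgeR adjusted p = 4.0e-04), Myh9 by 0.18 (SE 0.06, adjusted p = 0.0199) and Cd2ap by 0.15 (SE 0.05, adjusted p = 0.0344). At this threshold of 0.05, 3 of the 9 were lower and 0 higher, against 22.4% and 22.6% of all genes. At the study's threshold 0 of the 9 were called in either direction, against 0.167% higher and 1.47% lower among all genes. The fall of Tln1 also passed under library totals (-0.38), TPM (-0.45) and the removal of the length trend (-0.21), and without any one library it was -0.34 to -0.29. Those of Myh9 and Cd2ap missed 0.05 with the length trend removed (-0.08 and -0.06), Cd2ap also with DESeq2's size factors or Wald test (-0.12), with no filter (-0.14) and with the replicate block (-0.15), and both without single libraries of Ctrl or Cu-Cys: replicates 2 and 3 of either group for Myh9, and every Ctrl replicate and Cu-Cys replicates 1 and 3 for Cd2ap.

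The other 6 genes did not pass in Cu-Cys, and their 95% intervals on the log2 scale bound the change. They were -0.14 to 0.09 for Flna, -0.24 to 0.07 for Actn4, -0.18 to 0.07 for Iqgap1, -0.01 to 0.19 for Capzb, -0.07 to 0.14 for Pdlim1 and -0.04 to 0.38 for Myl6. Each of these intervals lies well inside a 2-fold change. Leaving out Cadict replicate 2, which enters this comparison through the shared scaling and estimate of spread, brought Capzb (0.09, edgeR adjusted p = 0.0437) and Myl6 (0.17, edgeR adjusted p = 0.00103) past 0.05 as higher. Capzb also passed in the DESeq2 Wald test (0.11, adjusted p = 0.0313). The medians were -0.05 for the 9 and 0.01 for all genes.

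Cadict against Cu-Cys asks what the components beyond copper and cystine, among them the enzyme and the peptide, added. It shares its Cadict libraries with the first comparison. Under TMM 8 genes were higher and Cd2ap lower at 0.05, whereas as TPM 3 were higher and 3 lower, against 40.3% higher and 45.6% lower among all genes under TMM and 11.4% and 77.6% as TPM. At the study's threshold 5 of the 9 were called higher and 0 lower, against 18.6% and 23.6%. Myl6 was higher by 1.99 ± 0.10 (SE, edgeR adjusted p = 3.8e-11), Capzb by 1.76 ± 0.05 (adjusted p = 2.9e-14), Pdlim1 by 1.42 ± 0.05 (adjusted p = 5.3e-13), Myh9 by 1.23 ± 0.06 (adjusted p = 1.5e-11) and Actn4 by 1.05 ± 0.07 (adjusted p = 1.6e-09). Tln1, which was low in Cu-Cys, differed by 0.98 ± 0.06 (SE, edgeR adjusted p = 1.7e-10), Flna by 0.80, Iqgap1 by 0.58 and Cd2ap by -0.34. Without Cadict replicate 2 Tln1 was at 1.03 and was called, and Actn4 was not called without Cadict replicate 1 (just short of 2-fold, at 1.00), without Cadict replicate 3 (0.98) or with no filter (0.96). The sign turned by library totals for Flna (-0.08) and Iqgap1 (-0.31), and as TPM for Flna (-0.36), Actn4 (-0.12), Tln1 (-0.17) and Iqgap1 (-0.58). Cd2ap was at 0.03 with the length trend removed.

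The change with Cadict varied with transcript length among all genes. When the tested genes were ordered by effective length (the number of positions from which a read can start) and cut into 10 bins, the median log2 fold change under TMM went from 0.83 in the shortest bin to -0.47 in the eighth and -0.35 in the longest. The 9 genes cover much of this range, from Myl6 at 363 bases, Pdlim1 at 1178 and Capzb at 1356 to Flna at 8095 and Tln1 at 8150. Among the genes of its own bin, each but Cd2ap stood above the median: Myl6 was at the 89.6th percentile, Capzb at 89.2, Myh9 at 87.0, Actn4 at 83.8, Flna at 83.0, Pdlim1 at 81.2, Tln1 at 80.5 and Iqgap1 at 76.8. Cd2ap was at 49.2. With the trend removed the 9 genes drew closer together, with Myl6 at 1.24, Myh9 at 1.43, Actn4 at 1.39, Pdlim1 at 1.27, Flna at 1.11, Tln1 at 0.99 and Iqgap1 at 0.90, while Capzb had the largest value, 1.74. The part of transcript length in the changes was not tested otherwise.

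**Figure D3:**
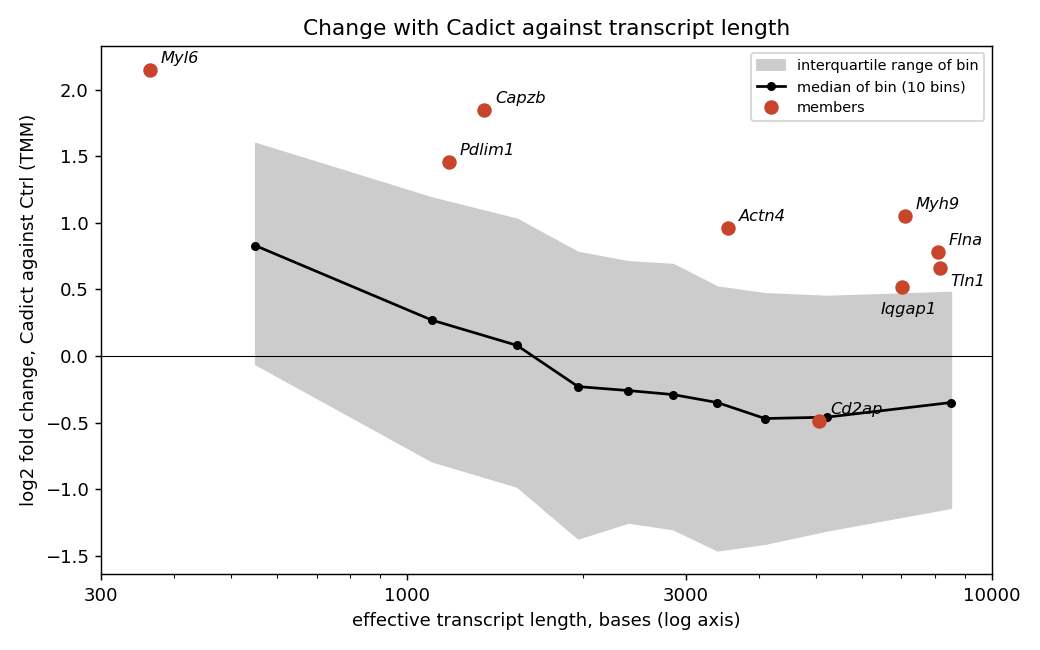
Log2 fold change in Cadict against Ctrl under TMM (vertical axis) against effective transcript length in bases (log axis), with the median of each of 10 length bins (line), the interquartile range of each bin (grey) and the 9 genes (points). All but Cd2ap lie above the interquartile range of their own bin, whose median goes from 0.83 for the shortest transcripts to -0.35 for the longest; heights relative to 0 depend on TMM scaling.

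Ratios between partner transcripts within a library do not depend on the scaling of libraries. In all, 13 ratios of TPM were compared for each treatment against Ctrl with a two-sided exact permutation test, whose smallest p with 3 libraries against 3 is 0.10 (0.12 after adjustment over the 26 tests), so no ratio could pass 0.05. The ratios are given as descriptions, since most genes changed and the share of arbitrary gene pairs that would separate was not computed.

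The light chains did not move as one against the heavy chain. Myl6 to Myh9, the shortest against one of the longest of these transcripts, was 5.51, 5.58 and 5.97 in Ctrl, 6.89, 7.92 and 6.95 in Cu-Cys and 11.2, 16.0 and 9.63 in Cadict. With the length trend removed, Myl6 rose by 1.24 and Myh9 by 1.43 with Cadict, so Myl6 no longer rose more than Myh9. Of the regulatory light chains, Myl12a to Myh9 was higher in Cadict (4.91 ± 0.662) than in Ctrl (1.68 ± 0.0297), whereas Myl12b to Myh9 was lower (0.438 ± 0.0911 against 1.31 ± 0.055; SD, n = 3). Myl12a to Myl12b was 1.29 ± 0.0755 in Ctrl, 1.92 ± 0.064 in Cu-Cys and 11.3 ± 0.831 in Cadict (SD, n = 3). With the length trend removed, Myl12a changed by 2.54 and Myl12b by -1.13 with Cadict, on either side of Myh9. Of their 50-base stretches, 21.1% for Myl12a and 19.1% for Myl12b also occur in other genes, including each other, so part of the split of reads between them is uncertain.

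For capping protein, Capzb to the alpha subunit Capza2 was 1.59, 1.62 and 1.68 in Ctrl, 1.75, 1.55 and 1.61 in Cu-Cys and 2.93, 3.31 and 2.88 in Cadict. Only Cadict stood apart. Against Capza1, 64.5% of whose stretches also occur in other genes, the ratio went from 1.31 ± 0.0168 in Ctrl to 2.06 ± 0.159 in Cadict (SD, n = 3). With the length trend removed, Capzb rose by 1.74 with Cadict, against 1.53 for Capza1 and 1.19 for Capza2.

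Cd2ap to its paralog Sh3kbp1 had a ratio of 1.88, 1.82 and 1.97 in Ctrl, 1.42, 1.52 and 1.37 in Cu-Cys and 0.333, 0.352 and 0.342 in Cadict. Both treatments lay below Ctrl, and Cadict far below. Tln1 to vinculin (Vcl), which binds stretched talin, was 1.12 ± 0.0512 in Ctrl, 1.36 ± 0.031 in Cu-Cys and 0.65 ± 0.0375 in Cadict (SD, n = 3). It thus lay above Ctrl in Cu-Cys and below it in Cadict. By annotation 25.5% of Vcl exon bases overlap exons on the opposite strand, and the counting is not stated to use strand.

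By contrast Actn4 to Actn1, its non-muscle paralog, stayed close to even, at 0.977 ± 0.000872 in Ctrl, 0.976 ± 0.035 in Cu-Cys and 0.946 ± 0.00818 in Cadict (SD, n = 3). For the 2 cytoplasmic actins, Actb to Actg1 went from 0.454 ± 0.00726 in Ctrl and 0.441 ± 0.00907 in Cu-Cys to 0.204 ± 0.00357 in Cadict (SD, n = 3). Of their 50-base stretches, 9.12% for Actb and 37.4% for Actg1 also occur in other genes, so this split of reads is uncertain too.

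**Figure D4:**
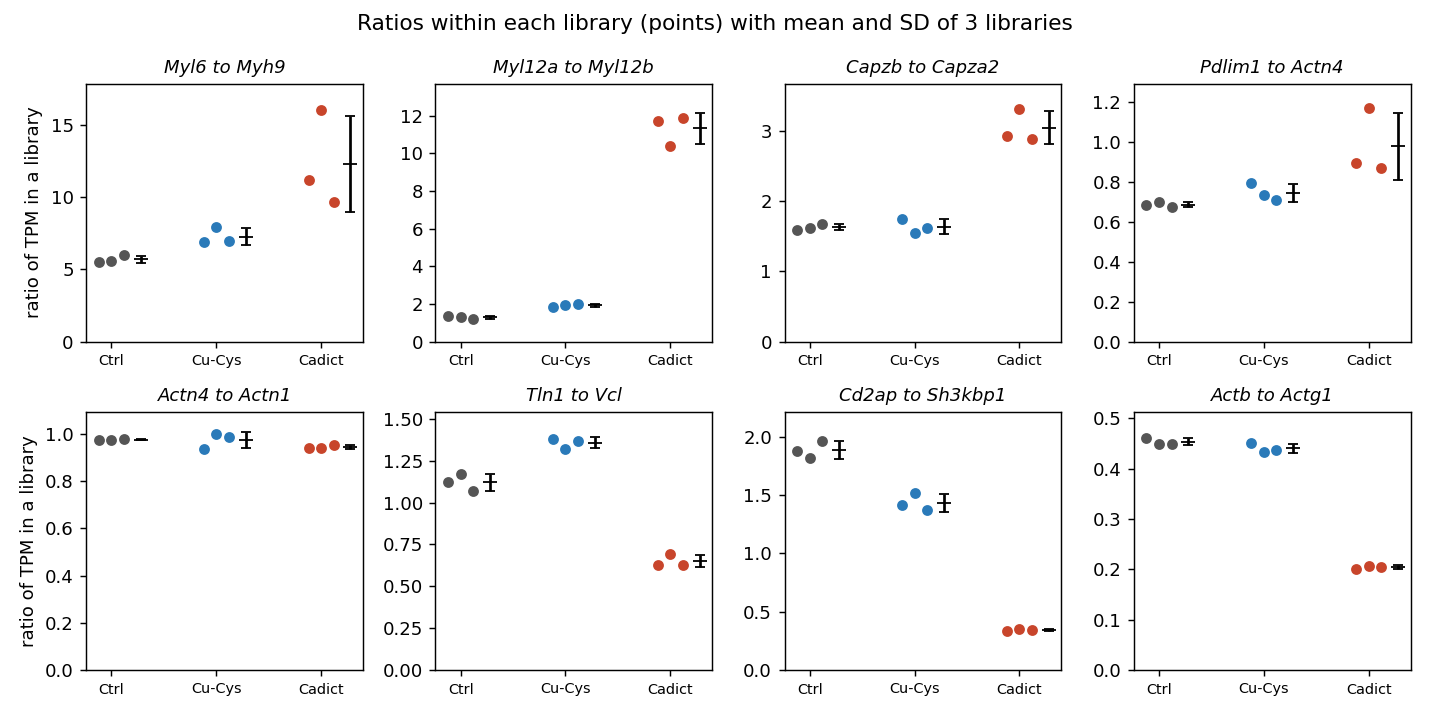
Ratio of TPM values of 2 genes within each library (vertical axes, from 0) for 8 of the 13 pairs in Ctrl, Cu-Cys and Cadict, with the mean and SD of 3 libraries. Actn4 to Actn1 changes least, and Myl12a to Myl12b changes most, from 1.21 to 1.36 in Ctrl to 10.4 to 11.9 in Cadict.

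Related genes were read from 7 further lists holding 86 genes, and the counts are for Cadict against Ctrl under TMM. Of 4 tested genes for other actin network proteins reported to form disulfides, 2 rose, 1 fell and Actb did not pass (-0.02, edgeR adjusted p = 0.803). Actb was lower by library totals (-0.97, edgeR adjusted p = 1.9e-10) and as TPM (-1.33, limma adjusted p = 5.9e-11). Dstn (destrin, which severs filaments) rose by 1.89, while Inf2, a formin, fell by 2.21 and was lower in every scaling used. Of 15 tested paralogs and partner subunits of the 9 genes, 9 rose and 5 fell, with a median of 1.01. Myl12a rose by 2.60, and the PDZ and LIM domain genes Pdlim5 and Pdlim7 rose by 2.21 and 1.98, while Pdlim2 of the same family fell by 1.33. Their signs held by library totals and as TPM, whereas Actn1 (1.01), Capza1 (1.19) and Capza2 (0.95) turned to -0.30, -0.11 and -0.36 as TPM.

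Of 9 tested actins and tropomyosins, which coat filaments, 7 rose and 0 fell, with a median of 1.32. Tpm4 rose by 1.58, Tpm3 by 1.46 and Tpm1 by 1.32, values that shrank to 0.27, 0.17 and 0.02 as TPM. Focal adhesion partners split as 17 higher and 5 lower of 23 tested, with a median of 1.02. Zyx (zyxin) rose by 2.66 and Csrp1 by 2.55, and Kank2, which binds talin, fell by 2.89, each in the same direction by library totals and TPM.

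Among 13 genes that control the myosin light chain, 8 rose and 5 fell, with a median of 0.47. The GTPase Rhoc rose by 2.15 and the kinase Dapk3 by 1.65, or 0.81 and 0.30 as TPM. Ect2, a guanine nucleotide exchange factor, fell by 1.71 (-2.95 as TPM). Of 10 further disulfidptosis genes, 9 rose and Oxsm, an enzyme of mitochondrial fatty acid synthesis, fell by 2.17. The cystine transporter subunits Slc3a2 and Slc7a11 rose by 2.98 and 1.47, or 1.69 and 0.10 as TPM, where Slc7a11 did not pass (limma adjusted p = 0.414). Every other gene of this list had a lower mean TPM in Cadict than in Ctrl. For Rpn1 it went from 199 to 141, but for Lrpprc only from 77.5 to 76.4. Of the 3 transcription factors of the serum response pathway that were tested, Srf rose by 1.48, or 0.18 as TPM. Mrtfb rose by 0.56, which turned to -0.66 as TPM. Mrtfa did not pass under TMM (-0.20, edgeR adjusted p = 0.0646). It was lower by library totals (-1.15, edgeR adjusted p = 9.2e-09) and as TPM (-1.30, limma adjusted p = 1.2e-07). With the length trend removed it was higher (0.26, edgeR adjusted p = 0.00743). Beside these counts stand the 40.6% higher and 47.1% lower of all genes and their median of -0.13.

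With Cu-Cys 10 of the 15 paralogs and partners were lower and 2 higher at 0.05, and 9 of the 23 focal adhesion partners were lower and 3 higher. Of the 13 genes that control the myosin light chain 4 were lower and 0 higher. Among the 10 further disulfidptosis genes 1 was lower and 3 higher. Vcl fell by 0.59 (edgeR adjusted p = 9.5e-06) beside the fall of Tln1, and Myl12a rose by 0.28 (edgeR adjusted p = 8.2e-04). The share of all genes past this threshold was 22.6% higher and 22.4% lower.

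The genes whose pattern over the 9 libraries was closest to Flna, by the root mean square difference of centred log2 CPM among 8551 genes, were Dek (0.0377), Etv3 (0.0418) and Tm9sf4 (0.0433). Closest to Myh9 were Ehd4 (0.0325), Jun (0.0583) and Ammecr1l (0.0664). Closest to Tln1 were Sptan1 (0.0397), Fam111a (0.0552) and Lgals8 (0.0581). Sptan1 encodes a spectrin chain of the membrane skeleton. It changed by 0.68 with Cadict and by -0.28 with Cu-Cys, beside 0.66 and -0.32 for Tln1. Such likeness follows from the choice by pattern.

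Sequence shared with other genes was counted over all annotated transcripts of each gene. The shares therefore do not give the part of reads that could belong elsewhere. The share of 50-base stretches that also occur in transcripts of another annotated gene was 0% for Flna and Capzb, under 1% for Myh9 and Iqgap1, and 3.15% for Tln1, 4.5% for Actn4, 5.24% for Cd2ap, 8.38% for Myl6 and 9.82% for Pdlim1. For Myl6 these were 3927 stretches, against an effective length of 363 bases, so the share in its expressed transcripts could be larger. Exons on the opposite strand overlapped 5.16% of the Actn4 exon bases, 3.67% of those of Tln1 and 0.877% of those of Iqgap1.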

How the data were processed

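RNA-seq was analysed from 3 Ctrl, 3 Cu-Cys and 3 Cadict libraries of MC38 cells. The authors deposited estimated counts (expected counts, without normalization), FPKM and TPM per gene, which carry their scaling by length and depth. The submitters' processing notes list HISAT2 2.1.0, Bowtie2 2.3.4.3 and RSEM 1.3.1, and the builds GRCm39 and GRCh38.p13 without roles. The labels name an RNA column kit and DNA nanoballs, whereas the study's methods name TRIzol and a NovaSeq. Columns named CC were read as Cu-Cys by its initials, and CCGE as Cadict, an inference from its components. A further 9 columns of size-factor counts and the columns of group averages were not used.

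Expected counts were rounded and fitted in edgeR 4.0.16 (R 4.3.3) with filterByExpr, TMM and the quasi-likelihood test, in one model of 3 groups, and the Benjamini-Hochberg adjustment ran over 11949 genes. Alternatives used DESeq2 1.42.0, limma 3.58.1 on log2 of TPM or FPKM with a pseudocount of 1 or 0.1, library totals, other filters (at least 10 counts in every library, or none), a replicate block, an offset for the length trend (lowess, span 0.3) and leaving out each library. Effective lengths were worked back from counts and FPKM. Shared stretches and exon overlaps came from GENCODE M21 on GRCm38, in which 47 of 47 genes queried were found. The fitting steps were tested on simulated counts with few changed genes and no length trend, so that test does not address the choice of scaling.

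The 9 genes, the lists, the 13 ratios and the tests were chosen with earlier results of these data known. From each list the 3 genes with the largest absolute change at an average of at least 10 CPM were named, and the 3 genes most like Flna, Myh9 and Tln1. Actb, Actg1, Actn1, Vcl, Capza1, Capza2, Sh3kbp1, Myl12b and Pdlim2 were named after their values were seen. Of the genes that this rule selects, 1 is not reported here. The study's methods name no pairing, so same-numbered libraries were not treated as pairs. Their residual correlations over 8551 genes were -0.192 to 0.152, against -0.241 to 0.296 for differently numbered libraries.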

Additional observations from a re-analysis of the deposited data

How the results depend on the processing

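Counts of genes called at the 2-fold threshold depended on the scaling. In Cadict against Ctrl the 4 called genes became 2 by library totals, 1 as TPM with either pseudocount and 2 as FPKM, and in Cadict against Cu-Cys the 5 became 2, 1 and 2. With the length trend removed they became 6 and 7, with DESeq2 (size factors or Wald test) 5 and 6, with at least 10 counts in every library 3 and 5, and with no filter 3 and 4. The 1 gene called as TPM was Cd2ap, as lower, and by library totals and FPKM 1 of the 2 was lower. Without the limit on the fold change, 9 passed in each of these comparisons and 3 in Cu-Cys against Ctrl. The 43 called genes of the other lists became 28 by library totals. Of all genes, 196 were called in Cu-Cys against Ctrl, against 71 as FPKM, 117 as TPM and 119 with at least 10 counts in every library. With each library left out in turn, 4 to 5 of the 9 were called for Cadict over Ctrl, 4 to 6 for Cadict over Cu-Cys and 0 for Cu-Cys over Ctrl, and with the replicate block the calls were 4, 5 and 0. The block raised the adjusted p of Cd2ap in Cu-Cys against Ctrl to 0.0513 (edgeR, log2 fold change -0.15) and changed no other call.

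Signs turned in Cadict against Ctrl by library totals for Flna (-0.18), Tln1 (-0.29) and Iqgap1 (-0.43). As FPKM they turned for Flna (-0.18), Tln1 (-0.27), Iqgap1 (-0.43) and Actn4 (-0.0048), and as TPM, with either pseudocount, for Flna (-0.52), Myh9 (-0.25), Tln1 (-0.62), Actn4 (-0.35) and Iqgap1 (-0.78). In Cadict against Cu-Cys they turned by library totals for Flna (-0.08) and Iqgap1 (-0.31), as FPKM for Flna (-0.08) and Iqgap1 (-0.31), as TPM for Flna (-0.36), Tln1 (-0.17), Actn4 (-0.12) and Iqgap1 (-0.58, or -0.59 with a pseudocount of 0.1), and with the length trend removed for Cd2ap (0.03). The cause was not tested. Values near 0 in Cu-Cys against Ctrl turned for Flna with DESeq2's factors or Wald test (0.0012), the length trend removed (0.08), and without Ctrl replicate 2 or Cu-Cys replicate 2 (-0.05 to 0.01 over all libraries left out). They also turned for Iqgap1 with the length trend removed (0.04), Capzb as TPM (-0.06), and Pdlim1 by library totals (-0.03), as TPM (-0.11) and as FPKM (-0.04). In Cadict against Ctrl, 150 of the member values under an alternative kept their sign and their side of 0.05, and 17 changed sign. A further 4 kept their sign but no longer passed 0.05.

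With 3 libraries in a group, an exact test of 1 ratio cannot go below 0.10.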
